A study of Rattus norvegicus with 3 samples.

Results

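The AP-1 transcription factor genes Fos, Fosl1, Fosl2, Jun, Junb and Jund were read on 3 rat expression arrays. Every probe set was taken whose platform annotation gives one of these symbols and no other, which came to 13 of the 8799 probe sets on the array and 6 of 4736 genes with a symbol of their own. Fos had 3, Fosl1 had 1, Fosl2 had 2, Jun had 4, Junb had 2 and Jund had 1, so all 6 genes had at least 1. The rule uses gene symbols and no measured value, although earlier results of these arrays were known when the family was picked. The study was a time course whose arrays are labelled 0.0 h, 0.1 h and 1.0 h, with 1 array for each label and total RNA as the molecule. All 3 samples name both pineal gland and adrenal medulla as their source, and no label gives a treatment agent, strain, age or number of animals. Nothing in the sources used here says whether a sample was a pool. With 1 array per label there is no spread between replicates, no standard error and no test of the conditions. The values below describe these 3 arrays.

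AP-1 is a dimer of proteins that share a basic region, which holds the DNA, and a leucine zipper, which holds the partner. Jun proteins can pair with each other or with a Fos protein, whereas Fos proteins need a Jun partner, and the composition of the dimer sets how strongly a target gene is switched on or held back. Fos, Jun and Junb are immediate early genes, copied within minutes of a stimulus by factors already present in the cell, and their transcripts are short-lived. In the rat pineal gland the Fosl2 product, Fra-2, is known for a nightly rise that follows noradrenaline release from sympathetic nerves. In adrenal chromaffin cells Fos is known to respond to nerve stimulation and to cyclic AMP.

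Of the 7 pinealocyte marker genes read, 7 were above the floor on each array. The floor is the intensity under which values were not compared, and it lay at 245.9, 263.5 and 280.3 in deposited units on the 0.0 h, 0.1 h and 1.0 h arrays. Of the 7 chromaffin cell marker genes, 3 were above it on each array (Chgb, Pnmt and Npy), while Th, Dbh, Phox2a and Slc18a1 were below it on all 3, so the enzymes that define catecholamine synthesis, Th and Dbh, were not seen above the floor. The 9 leukocyte markers had 6, 6 and 7 members above the floor and a summed scaled intensity of 5957.5 at 0.0 h, 8238.6 at 0.1 h and 7248.4 at 1.0 h. The 5 glial markers summed to 4594.1, 6687.7 and 5546.1, and the 4 endothelial markers to 3195.1, 2187.8 and 3027.6. Of 5 adrenal cortex markers, 1, 0 and 1 were above the floor. The 3' to 5' intensity ratio of the beta-actin control was 10.4, 17.8 and 44.4 on the 3 arrays, and that of the GAPDH control 15.3, 18.6 and 14.1. The glial sum followed S100b alone, at 1328.1, 3560.6 and 2439.3 in deposited intensity, while Slc1a2 had 1492.0, 1415.1 and 1412.6 and Slc1a3 had 1644.6, 1382.3 and 1675.4. Of the leukocyte markers, Ptprc, Cd14 and Lyz2 were higher at 0.1 h than at 0.0 h, and Cd74 and Fcgr2b were lower. In such bulk samples fewer cells of a type and less RNA per cell cannot be told apart.

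Fos encodes the founding member of the family and was measured above the floor by each of its 3 probe sets on each of the 3 arrays. Its brightest probe set, X06769cds_g_at, had a deposited intensity of 1599.7 at 0.0 h, 3465.2 at 0.1 h and 3668.8 at 1.0 h. The probe set X03347cds_g_at had 632.7, 1077.7 and 1333.2, and X06769cds_at had 385.2, 488.9 and 774.0. All 3 probe sets were lowest on the 0.0 h array and highest, in deposited intensity, on the 1.0 h array. They differed in when most of the difference appeared. X06769cds_g_at was already 2.22-fold higher at 0.1 h than at 0.0 h (log2 difference 1.15) and was level between the later arrays (-0.01). X03347cds_g_at had a log2 difference of 0.80 at 0.1 h against 0.0 h and 0.22 at 1.0 h against 0.1 h, and X06769cds_at had 0.38 and 0.57. The 3 readings of 1.0 h against 0.0 h lay close together, at 1.14, 1.02 and 0.95.

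**Figure D1:**
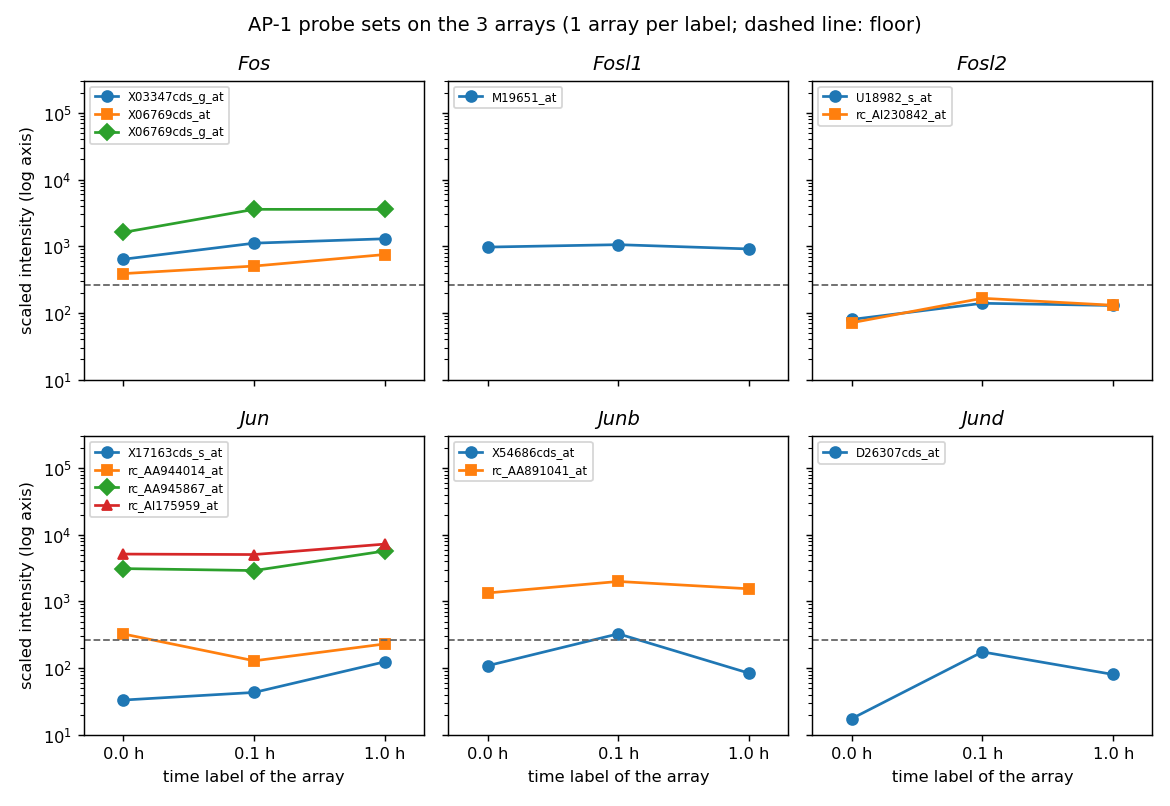
Scaled intensity (log axis) of each AP-1 probe set on the arrays labelled 0.0 h, 0.1 h and 1.0 h, 1 panel per gene and 1 line per probe set; each point is 1 array and the dashed line is the floor at 263.5. The 3 Fos lines are lowest on the 0.0 h array, the 2 bright Jun lines stand higher on the 1.0 h array alone, and both Fosl2 lines and the Jund line stay below the floor.

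Set beside the whole array, the Fos differences at 1.0 h against 0.0 h lay near the upper end. Of 4806 probe sets measured on both arrays, 90 (1.87%) had a larger difference than X06769cds_g_at, 135 (2.81%) a larger one than X03347cds_g_at and 171 (3.56%) a larger one than X06769cds_at. At 0.1 h against 0.0 h the places were wider apart: 194 of 4769 probe sets (4.07%) were above X06769cds_g_at, 482 (10.1%) above X03347cds_g_at and 1265 (26.5%) above X06769cds_at. The letters cds in a name mean that the probes were picked from the coding sequence, and the ending _g stands for sequence that several database entries share. X06769cds_g_at and X06769cds_at come from the same entry and are not independent readings. For X03347cds_g_at the entry in the name differs from the one in the annotation. With arrays scaled to the 9 spike-in controls, the difference of X06769cds_g_at at 0.1 h against 0.0 h was 0.87, under 2-fold, and at 1.0 h against 0.0 h it was 1.34. The leukocyte marker sum and the glial S100b were also higher on both later arrays than at 0.0 h, but Slc1a2 was lower on both. Slc1a3, Cd74 and Fcgr2b were lower at 0.1 h. At 1.0 h the leukocyte markers Ptprc, Cd74, Cd14, Lyz2 and Fcgr2b were higher than at 0.0 h in deposited intensity. Cd74, for example, had 538.6 at 0.0 h and 834.9 at 1.0 h. Cd53 was lower at 1.0 h, with 347.3 and 284.3. The beta-actin ratio was higher on both later arrays, and the GAPDH ratio at 0.1 h but not at 1.0 h. The part of cell content and RNA quality in the Fos difference was not tested.

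Fosl1 encodes Fra-1, a Fos relative without the strong activation domain of Fos. Its single probe set, M19651_at, read 962.1 at 0.0 h, 1022.9 at 0.1 h and 937.5 at 1.0 h. These values were the most even of the measured members, with log2 differences of 0.12 at 0.1 h against 0.0 h, -0.09 at 1.0 h against 0.0 h and -0.21 at 1.0 h against 0.1 h. Each is smaller than the SD of the log2 differences over all measured probe sets, which was 0.53, 0.44 and 0.56 in these comparisons, and with spike-in scaling all 3 signs turned (-0.15, 0.10 and 0.25). Fosl2, the Fra-2 gene, was below the floor throughout. Its probe set rc_AI230842_at had 70.4, 160.6 and 134.2, and U18982_s_at had 79.0, 135.1 and 133.1. No fold is given for Fosl2, since values under the floor have no order.

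Promoter windows were available for Fosl1, Fosl2, Junb and Jund from RefSeq on the assembly GRCr8, each 300 bases from 250 before to 50 after the annotated start. They are shown because cyclic AMP and growth signals are known to reach immediate early genes through short elements near the start. The elements searched on both strands were the cyclic AMP response element (CRE, TGACGTCA), its core TGACG, the AP-1 site TGANTCA, the CCAAT box, the TATA box TATAAA, the GC box GGGCGG and the CArG box that binds serum response factor. A match is a run of letters and not a proven site. Capitals mark the CRE core, CCAAT and TATA box matches in the windows of Fosl1 (chr1:212183635-212183934, plus strand), Junb (chr19:40080876-40081175, plus strand) and Jund (chr16:18769722-18770021, minus strand), all written 5′ to 3′ along the gene.
Fosl1: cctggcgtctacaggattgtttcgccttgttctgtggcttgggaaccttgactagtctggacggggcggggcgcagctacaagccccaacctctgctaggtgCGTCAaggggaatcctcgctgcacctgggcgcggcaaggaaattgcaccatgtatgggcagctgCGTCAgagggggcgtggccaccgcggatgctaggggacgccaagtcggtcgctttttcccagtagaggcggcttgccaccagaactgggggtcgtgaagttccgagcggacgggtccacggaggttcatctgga
Junb: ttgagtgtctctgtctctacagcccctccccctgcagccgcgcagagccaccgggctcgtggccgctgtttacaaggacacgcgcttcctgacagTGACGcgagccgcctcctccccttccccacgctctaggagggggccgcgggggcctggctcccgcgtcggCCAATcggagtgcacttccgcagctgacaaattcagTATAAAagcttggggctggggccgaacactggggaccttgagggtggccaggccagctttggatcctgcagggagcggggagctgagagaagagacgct
Jund: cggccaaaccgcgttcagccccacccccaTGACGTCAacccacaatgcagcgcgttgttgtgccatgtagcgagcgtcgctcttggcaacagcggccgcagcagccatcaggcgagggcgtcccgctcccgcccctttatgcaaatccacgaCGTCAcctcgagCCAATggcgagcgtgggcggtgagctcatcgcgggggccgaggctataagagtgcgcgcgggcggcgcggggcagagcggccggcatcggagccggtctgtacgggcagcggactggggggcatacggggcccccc

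Among the 4 windows the full CRE was found once, in Jund, from -221 to -214 relative to the start, and 1.83% of 33469 promoter windows of this length hold one. The CRE core was found 3 times in Jund, of which 2 lie inside that full CRE, 2 times in Fosl1 (from -148 and from -84) and 1 time in Junb (from -155). It was found 0 times in Fosl2. The core occurs in 21.2% of all windows. Junb and Jund each had 1 CCAAT box, from -85 and from -86, against 37.5% of all windows with at least 1. Junb had the only TATAAA of the 4, from -49 to -44, and 14.2% of all windows hold it. GC boxes numbered 3 in Jund, 2 in Fosl2, 1 in Fosl1 and 0 in Junb, and 33.1% of all windows hold at least 1. No window held an AP-1 site or a CArG box, which 7.33% and 1.64% of all windows do.

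**Figure D2:**
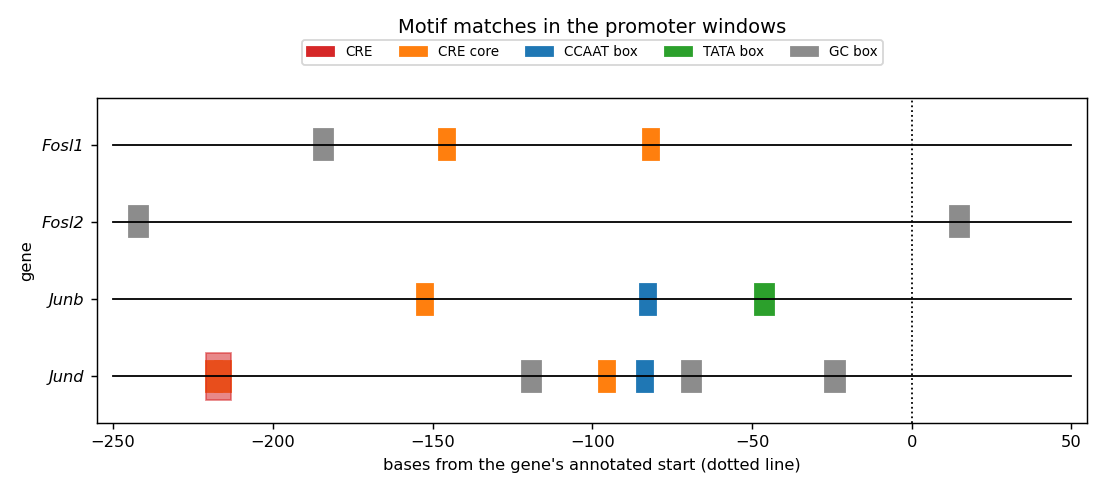
Position of motif matches, in bases from the annotated start (dotted line), in the promoter windows of Fosl1, Fosl2, Junb and Jund; coloured boxes are drawn to scale and the taller red box is the full CRE, which overlaps 2 CRE cores. The CCAAT boxes of Junb and Jund start at -85 and -86, and Fosl2 shows GC boxes alone.

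Jun encodes the partner that every Fos protein can use. Its 2 bright probe sets were picked from expressed sequence tags, and both were above the floor on all 3 arrays. The first, rc_AI175959_at, read 5092.7 at 0.0 h, 4899.4 at 0.1 h and 7478.2 at 1.0 h. The second, rc_AA945867_at, had 3084.3, 2819.5 and 5900.5. Both were nearly level between 0.1 h and 0.0 h, with log2 differences of -0.02 and -0.10, and higher on the 1.0 h array alone. Their differences at 1.0 h against 0.0 h were 0.50 and 0.88, that is 1.41-fold and 1.84-fold. They were 0.52 and 0.98 at 1.0 h against 0.1 h, and 200 of 4791 measured probe sets (4.17%) had a larger difference than rc_AA945867_at. That reading was just under the 2-fold line at 1.97-fold and crossed it, with log2 differences of 1.07, 1.01 and 1.45, in the values as deposited and with quantile and spike-in scaling. Under the scalings and floors tried, the 1.0 h array stayed above both others on both probe sets. On the 1.0 h array the control ratio for beta-actin was highest, at 44.4, and that for GAPDH lowest, at 14.1, and the part of RNA quality in the Jun difference was not tested.

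The other Jun probe sets were dim. X17163cds_s_at, from the coding sequence, never reached the floor, reading 33.0 at 0.0 h, 42.0 at 0.1 h and 128.6 at 1.0 h. The tag probe set rc_AA944014_at was above the floor at 0.0 h with 322.4 and below it at 0.1 h and 1.0 h with 124.9 and 237.9, so it gives no measured difference and does not share the order of the bright pair.

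Junb encodes a Jun protein that is a weaker activator than Jun on many promoters and can oppose it. Its tag probe set rc_AA891041_at read 1329.2 at 0.0 h, 1934.3 at 0.1 h and 1595.3 at 1.0 h. Its highest reading was on the 0.1 h array, by 1.49-fold over 0.0 h (log2 difference 0.57), a size that 835 of 4769 probe sets (17.5%) exceeded. The log2 difference of 1.0 h was 0.21 against 0.0 h and -0.37 against 0.1 h. With spike-in scaling the 1.0 h array was 0.10 above 0.1 h instead. The coding sequence probe set X54686cds_at had 107.6, 317.2 and 86.4, above the floor on the 0.1 h array only. Both Junb probe sets thus had their highest value on the 0.1 h array. The leukocyte marker sum, at 8238.6, and the glial S100b, at 3560.6, were also highest there. The leukocyte markers Cd74 and Fcgr2b were lowest there, and the glial Slc1a2 and Slc1a3 were not highest. The part of leukocytes and glia in the Junb values was not tested. Jund, usually the most steadily expressed Jun gene, had a single probe set, D26307cds_at, that read 17.3 at 0.0 h, 169.9 at 0.1 h and 82.8 at 1.0 h, all under the floor.

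Across the family, 7 of the 13 probe sets were above the floor on all 3 arrays (3 of Fos, 2 of Jun and 1 each of Fosl1 and Junb), 2 were above it on 1 array and 4 on none. The counts below cover those 7 alone, and several of them read the same transcript. At 0.1 h against 0.0 h, 1 of the 7 was at least 2-fold higher, where 6.37% of 4769 measured probe sets were, and 0 were at least 2-fold lower, where 4.24% were. Their median log2 difference was 0.38, beside 0.03 for all measured probe sets. The member count is near the background in this comparison. Between 1.0 h and 0.0 h, 2 of the 7, both of Fos, were at least 2-fold higher against 3.1% of 4806 probe sets, and 0 were lower against 2.46%. The median was 0.88, beside 0.03 for all, with Fosl1 the only one of the 7 below 0. This median counts Fos and Jun more than once. With 1 reading per gene, from the brightest probe set, 1 of 4 measured genes was at least 2-fold higher, against 2.56% of 3047 genes. The median of the 4 was 0.35, beside 0.02 for all genes. Between 1.0 h and 0.1 h, 0 of the 7 were at least 2-fold higher or lower, against 3.86% and 5.49% of 4791 probe sets, and the median was 0.22, beside -0.01. With 1 reading per gene that median was -0.11, beside 0.01 for all genes. The comparisons with 0.0 h share that array. The 2 probe sets counted at 1.0 h both carry the ending _g, and X03347cds_g_at was near the line at 2.03-fold, falling to 0.96 on the log2 scale with cyclic loess and to 0.93 with quantile normalisation.

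**Figure D3:**
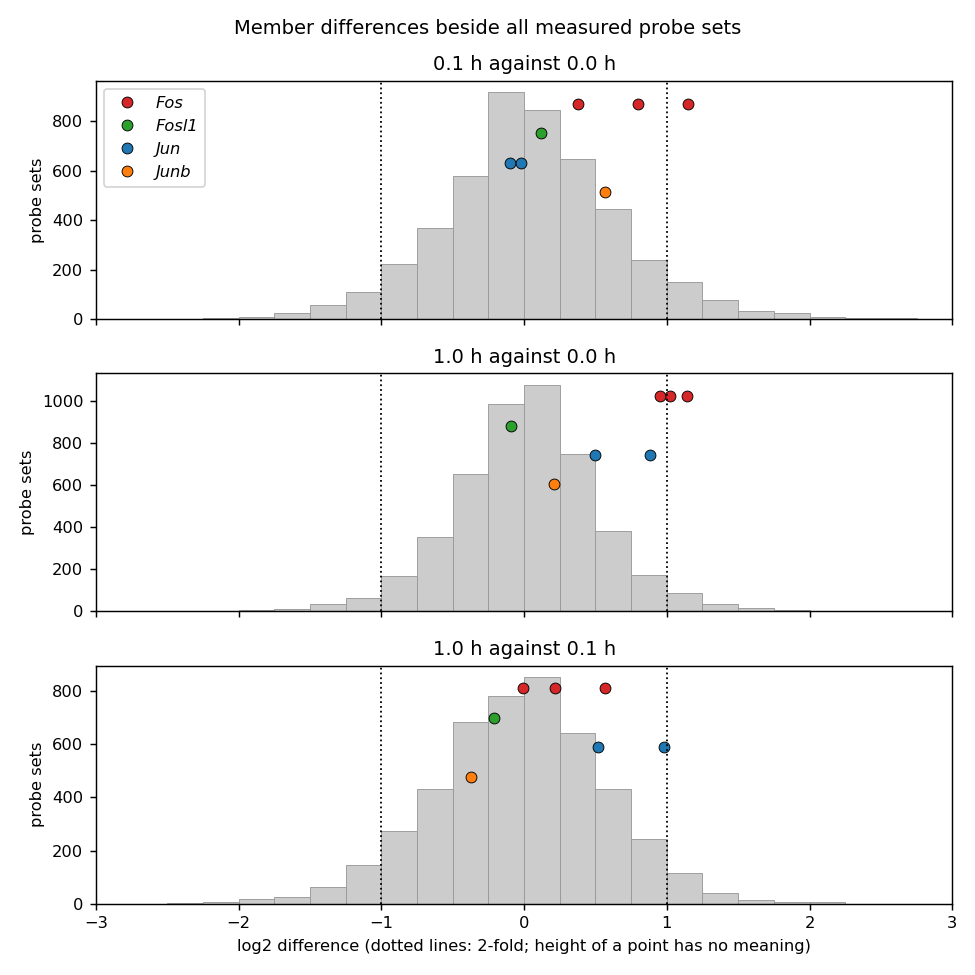
Log2 differences of the 7 measured AP-1 probe sets (coloured points, by gene; height within a panel has no meaning) above histograms of all measured probe sets, for 0.1 h against 0.0 h, 1.0 h against 0.0 h and 1.0 h against 0.1 h; dotted lines mark 2-fold, bars count probe sets in steps of 0.25, and the axis is drawn from -3 to 3. At 1.0 h against 0.0 h the 3 Fos points gather between 0.95 and 1.14, and the 2 Jun points lie at 0.50 and 0.88.

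A further list was headed bZIP partners and inhibitors, where bZIP stands for the basic region and leucine zipper. The heading does not mean that each factor pairs with an AP-1 member or binds its sites. Like the lists below, it was chosen with earlier results of these data known. Of its 31 genes, 15 had a probe set of a single symbol and 9 were measured in each comparison, each read from its brightest probe set. At 0.1 h against 0.0 h, 0 of the 9 were at least 2-fold higher or lower, against 5.76% and 4.59% of 3005 genes. Their differences ran from -0.20 for Maf to 0.82 for Cebpb, with a median of 0.22 beside 0.00 for all genes. The same count was 0 of the 9 at 1.0 h against 0.0 h, where 2.56% of 3047 genes were higher and 2.53% lower, and the median was -0.01. The later arrays, 1.0 h against 0.1 h, also gave 0 of the 9, against 4.07% and 5.03% of 3020 genes, and the median was -0.26. The brightest members were Dbp, a clock output factor, which read 22658.5 at 0.0 h, 22941.5 at 0.1 h and 23249.1 at 1.0 h, and Nfe2l2, which encodes the oxidative stress factor Nrf2, with 4886.2, 4317.9 and 3521.2. These are the brightest probe sets, and the others differ from them: J03179_at of Dbp had log2 differences of 0.42 at 0.1 h and 0.26 at 1.0 h against 0.0 h, where the brightest had 0.05 and -0.02. For Nfe2l2, rc_AI177161_g_at had 0.57 at 0.1 h against 0.0 h and -1.06, past 2-fold, at 1.0 h against 0.1 h, where the brightest had -0.15 and -0.38. Both Nfe2l2 probe sets were lower at 1.0 h than at 0.0 h, by log2 differences of -0.53 and -0.49.

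Of the kinases, phosphatases and factors that act on AP-1 genes or proteins, 25 of 38 had a probe set. At 0.1 h against 0.0 h, 4 of 15 measured genes were at least 2-fold higher and 0 lower, against 5.76% and 4.59% of all genes, with a median of 0.39. They were 3 MAP kinase kinase genes and a p38 kinase gene: Map2k1 (log2 difference 1.97), Map2k2 (1.49), Map2k5 (1.19) and Mapk14 (1.07). Other measured probe sets of these genes differed widely: -0.03 for Map2k1, 0.98 and 2.54 for Map2k2, 2.42 for Map2k5, and 0.44, 1.02 and 1.51 for Mapk14. In the comparison of 1.0 h with 0.0 h, 2 of 18 were higher, Map2k1 at 1.51 and Map2k2 at 1.15, and 0 were lower, against 2.56% and 2.53%, with a median of 0.08. These counts depend on the probe set read: another of Map2k1 had 0.35 and those of Map2k2 0.43 and 1.92, while Map2k5 had -0.02 on its brightest and 1.88 on its other, and Mapk14 had 0.09 on its brightest and 0.22, 0.24 and 1.66 on the rest. Of 17 genes measured at 1.0 h and 0.1 h, 0 were higher at 1.0 h and 1 was lower, Map2k5 at -1.20, against 4.07% and 5.03%, with a median of -0.19. The other Map2k5 probe set had -0.54, and Mapk14 had -0.98 on its brightest and -1.27, -0.21 and 0.64 on the rest. With spike-in scaling the 4 genes at 0.1 h were 2, where 139 of 4769 probe sets were higher. The 2 genes at 1.0 h against 0.0 h were 4, where 278 of 4806 probe sets were higher. The 1 lower at 1.0 h against 0.1 h was 0, where 59 of 4791 probe sets were lower. Map2k1 itself read 4294.9 at 0.0 h, 16434.2 at 0.1 h and 12697.9 at 1.0 h.

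A list of 42 genes, headed genes with known AP-1 sites and called the AP-1 target list here, had 33 on the array. Neither name means that AP-1 acts on each gene in these samples. The list was chosen with earlier results of these data known, so the shares of all genes given beside it are no test. At 0.1 h against 0.0 h, 5 of 22 measured genes were at least 2-fold higher and 0 lower, again against 5.76% and 4.59%, with a median of 0.50. The largest differences were those of the cyclooxygenase gene Ptgs2 (1.76), the quinone reductase gene Nqo1 (1.71), the chemokine gene Cxcl2 (1.66) and the cytokine gene Il6 (1.04). At 0.0 h Ptgs2, Cxcl2 and Il6 read 570.3, 380.5 and 451.8, not far above the floor of 245.9 on that array. For 1.0 h against 0.0 h, 6 of 23 were higher and 2 lower, against 2.56% and 2.53%, with a median of 0.13. Cxcl2 had 1.59, Il6 1.27, Ptgs2 1.25 and the collagen gene Col1a1 1.11 on its brightest probe set, whose 3 other probe sets had -0.32, 0.19 and 0.73. The genes at least 2-fold lower were Spp1, which encodes osteopontin, at -1.47, and Gclm, a subunit gene of glutathione synthesis, at -1.02, with 0.39 on its other measured probe set. For 1.0 h against 0.1 h, 0 of 24 were higher and 2 were lower, Nqo1 at -2.37 and Spp1 at -1.82, against 4.07% and 5.03%, with a median of -0.08. Nqo1 read 2606.6 at 0.0 h, 8354.6 at 0.1 h and 1721.3 at 1.0 h, so it was high on the 0.1 h array alone. The leukocyte marker sum and S100b were higher on both later arrays than at 0.0 h, but Slc1a2 was lower on both. Slc1a3, Cd74 and Fcgr2b were lower at 0.1 h. At 1.0 h the leukocyte markers Ptprc, Cd74, Cd14, Lyz2 and Fcgr2b were higher than at 0.0 h in deposited intensity, and Cd53 was lower. The part of cell content in these lists was not tested. The count of 5 at 0.1 h against 0.0 h was 3 of 22 with quantile, cyclic loess or spike-in scaling. Over all measured probe sets these gave 249 of 4773, 262 of 4758 and 139 of 4769. Raising the floor to the 60th percentile gave 1 of 16, beside 177 of 3252. The 6 at 1.0 h against 0.0 h were then 2 of 16, beside 67 of 3281. They were 5 of 22 as deposited (164 of 4789 probe sets). With quantile (125 of 4800) and cyclic loess scaling (124 of 4785) they were 5 of 23. The 20th percentile floor gave 4 of 27, beside 369 of 6448. The 2 lower at 1.0 h against 0.0 h were 1 as deposited, with spike-in scaling and with the 60th percentile floor. Over all probe sets 101 of 4789, 62 of 4806 and 62 of 3281 were then lower. The 0 higher at 1.0 h against 0.1 h were 2 with spike-in scaling, where 789 of 4791 probe sets were higher.

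**Figure D4:**
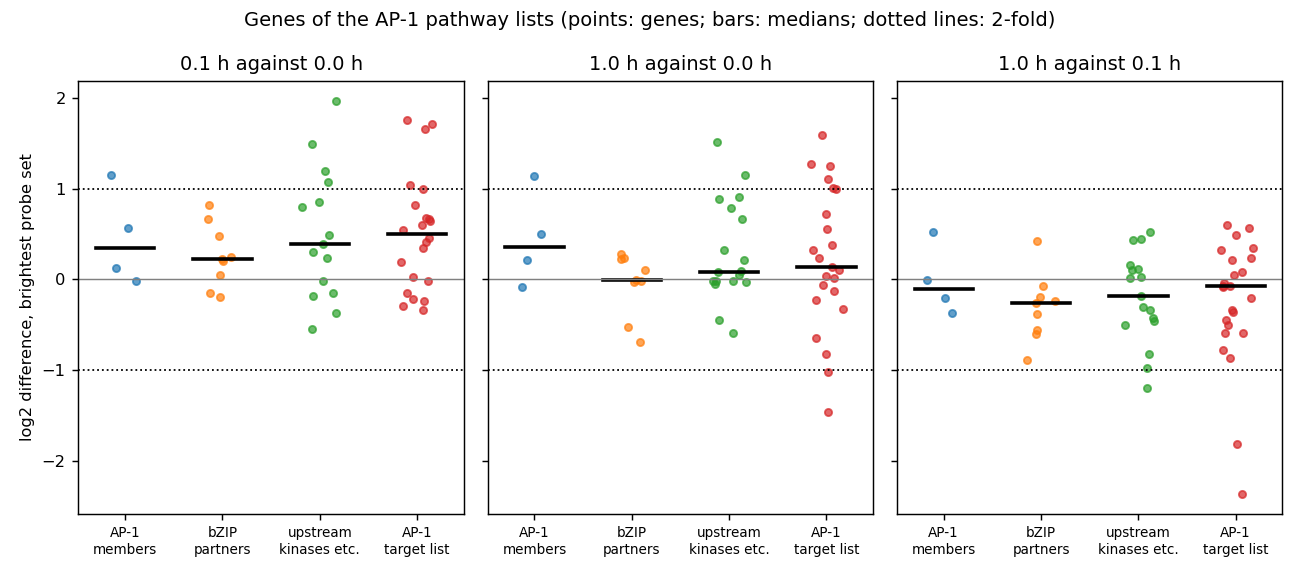
Log2 difference of each measured gene (points, brightest probe set) in the AP-1 family, the list of bZIP partners, the list of upstream kinases, phosphatases and factors, and the AP-1 target list, for 0.1 h against 0.0 h, 1.0 h against 0.0 h and 1.0 h against 0.1 h; bars are medians and dotted lines mark 2-fold. At 0.1 h against 0.0 h the medians are 0.35, 0.22, 0.39 and 0.50, and the bZIP partners have 0 points past the lines in any panel.

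The genes whose pattern over the 3 arrays was most like Fos were found among 519 other genes above the floor on all 3 arrays and at least 2-fold apart between some pair of them, by the Euclidean distance between the centred log2 values. For X06769cds_g_at these were Zfp706 and Neurl2, each at a distance of 0.082, and Kcnj1, a potassium channel gene, at 0.102. Neurl2 read 733.9 at 0.0 h, 1698.5 at 0.1 h and 1810.4 at 1.0 h. For X03347cds_g_at they were the interferon regulatory factor gene Irf7 at 0.043, the phospholipase gene Pla2g2a at 0.047 and the glutamate receptor gene Grin2d at 0.070. Irf7 had 3020.0, 5203.1 and 6630.9. The 2 Fos probe sets had no gene in common among these nearest 3, and 3 arrays give a pattern of only 2 independent differences. No other member probe set was both above the floor on all 3 arrays and at least 2-fold apart between any pair.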

How the data were processed

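Expression arrays of 3 rat samples were used (0.0 h, 0.1 h and 1.0 h, 1 each). The authors deposited a linear intensity for each probe set; how probes were summarised and corrected for background, and with which software, is not given in the sources used here. Trimmed means of the deposited intensities were nearly equal (2503.7, 2503.9 and 2503.7 without the highest and lowest 2%). Gene symbols came from the platform annotation, and 59 control probe sets were left out of all counts.

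Intensities were taken to log2 and each array was scaled to the median of the array medians. The floor was the 40th percentile of the scaled values (263.5), and arrays were then shifted to equal medians over probe sets above it on all 3 arrays; the total log2 factors were 0.011, 0.044 and -0.044. The floor left 60.1%, 59.9% and 60.3% of probe sets above it. Differences were taken between arrays both above the floor and counted from 2-fold. SDs of log2 differences are median absolute deviations over probe sets, rescaled. A listed gene was read from its brightest probe set (by mean log2 value). Named genes were all members, up to 4 list genes per direction among those 2-fold apart, the 2 brightest where none was, and the 3 genes nearest to a member in pattern. With 1 array per label no test was run. The number of arrays limits the precision.

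The results were recomputed on deposited values without further scaling, after quantile normalisation and after cyclic loess with limma 3.58.1 (R 4.3.3). They were also recomputed with equal means of the 9 spike-in probe sets, and with other floors, other probe sets and a fold of 1.5. The scaling and counting were tested on simulated data with less scatter between arrays than here and larger planted changes than those of Fos. That test does not say how many 2-fold calls on these arrays are false. The members, lists and rules were chosen with earlier results of these data known. Computation used Python 3.11.15.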

Additional observations from a re-analysis of the deposited data

How the results depend on the processing

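No paired analysis was possible because there was 1 array per time label. With no replicates, no array could be left out. The counts of measured member probe sets at least 2-fold apart moved with the setting. In brackets after a setting is the same count over all measured probe sets. That for 0.1 h higher than 0.0 h (1) was 0 with spike-in scaling (139 of 4769). It was also 0 without probe sets with name endings such as _g or _s, a setting that leaves out the 1 probe set counted. It was 2 of 10 with a 20th percentile floor (543 of 6417), 4 of 13 with no floor (1039 of 8740) and 2 at 1.5-fold. That for lower (0) was 1 of 10 with a 20th percentile floor (477 of 6417) and 1 of 13 with no floor (1125 of 8740). The count for 1.0 h higher than 0.0 h (2) was 1 with quantile (125 of 4800) and with cyclic loess normalisation (124 of 4785). It was 1 of 9 with the 20th percentile floor (369 of 6448) and 1 of 5 with the 60th (67 of 3281). It was 3 as deposited (164 of 4789), 3 of 13 with no floor (946 of 8740) and 4 with spike-in scaling (278 of 4806). At 1.5-fold it was 4, and without the suffixed probe sets 0, since both probe sets counted end in _g. No count over all probe sets was made at 1.5-fold or without the suffixed probe sets. The member counts under these settings therefore cannot be set against a background. The count for 1.0 h higher than 0.1 h (0) was 1 as deposited (260 of 4832) and with quantile normalisation (209 of 4786). It was 1 of 13 with no floor (1055 of 8740), 1 at 1.5-fold and 2 with spike-in scaling (789 of 4791). That for lower (0) was 2 of 13 with no floor (1020 of 8740). Removing the floor admits 6 more probe sets, 4 below it on all arrays and 2 above it on 1 array, and so takes in values not compared elsewhere. Averaging all probe sets gave Fos 0.77 at 0.1 h against 0.0 h and 1.04 at 1.0 h against 0.0 h, and gave Junb 1.08 at 0.1 h against 0.0 h, -0.08 at 1.0 h against 0.0 h and -1.17 at 1.0 h against 0.1 h, the Junb average taking in X54686cds_at, which is below the floor at 0.0 h and 1.0 h. The cause of the other moves was not tested.

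Spike-in scaling shifted all log2 differences by -0.27, 0.20 and 0.47 in the 3 comparisons (0.1 h against 0.0 h, 1.0 h against 0.0 h, 1.0 h against 0.1 h). The probe sets at least 2-fold higher were then 23.5%, 81.8% and 93.0% of those 2-fold apart, in place of 60.1%, 55.8% and 41.3%. As deposited the last share was 55.2%. Relative to the other probe sets this shift leaves each member where it was. Of the list medians, that of the bZIP partners at 0.1 h against 0.0 h turned to -0.06 under it, and the medians of all 3 lists at 1.0 h against 0.1 h turned to 0.21, 0.28 and 0.39 (bZIP partners, upstream genes, targets). With the 20th percentile floor 3 of 20 upstream genes, in place of 0 of 17, were at least 2-fold higher at 1.0 h than at 0.1 h. Of all probe sets measured at that floor, 433 of 6457 were. The bZIP median at 1.0 h against 0.0 h (-0.01) was above 0 under each other scaling (0.05 to 0.19), and the target median at 1.0 h against 0.1 h was 0.01 as deposited.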
